A study of Mus musculus with 5 samples.

Results

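Expression of 10 genes that mark retinal bipolar cells was described across the cell types of sorted mouse retinal cells. The genes were *Grm6*, *Trpm1*, *Isl1*, *Prkca*, *Car8*, *Pcp2*, *Cabp5*, *Scgn*, *Vsx1* and *Grik1*. They were chosen by symbol as markers and matched by that symbol, and all 10 were found among the 33696 genes listed for each library.

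The cells came from *Glast-CreERT2; Rosa26-Ai65* mice on a C57BL/6J background. In these mice the tdTomato reporter needs both Cre, which tamoxifen activates in Müller glia (MGs) and other *Glast*-expressing cells, and Flp, which the virus carries. Retinas received 2 µL of ShH10 AAV in which a *GFAP* promoter drove either *mKate2*, a red fluorescent control protein, or *Yap5SA*, a form of the growth regulator YAP that the Hippo kinases cannot inactivate. The mice were 12 to 20 weeks old, with both sexes pooled, and tdTomato+ cells were sorted 56 days after injection. Retinas were pooled, 16 for *mKate2* AAV and 21 for *Yap5SA* AAV. These numbers are given per condition, and whether the libraries of a condition came from separate pools is not stated. Because retinas were pooled, the spread between libraries is not a spread between animals. The comparison asks whether cells of a bipolar type occur among the sorted cells, and whether MGs exposed to *Yap5SA* carry RNA of bipolar genes.

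Bipolar cells carry signals from photoreceptors to the inner retina. ON bipolar cells respond to light increments through the metabotropic glutamate receptor mGluR6, which closes the cation channel TRPM1 in darkness, while OFF bipolar cells use AMPA and kainate receptors that glutamate opens directly. Rod bipolar cells are a single ON type that receives rod input and is classically stained for protein kinase C alpha.

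The start regions of the genes are shown first, because photoreceptor and bipolar genes are known to be bound by the homeodomain factors CRX and OTX2, which favour the letters TAATCC. RefSeq windows of 250 bases before the annotated start (GRCm38.p6) were found for 8 of the 10 genes, and none was found for *Grik1* and *Car8*. The letters TAATCC or their reverse complement GGATTA occurred in windows of 3 of the 8 genes, *Cabp5*, *Trpm1* and *Isl1*. Over all genes with a window, 7.21% held a match, and over all 32851 windows 6.25% did. A match is a run of letters and does not show a bound site. The *Cabp5* window lies at chr7:13397905-13398154 on the + strand and holds matches 160 and 41 bases before the start. The *Trpm1* window with a match lies at chr7:64153585-64153834 on the + strand and holds it 34 bases before the start. The *Isl1* window lies at chr13:116309689-116309938 on the - strand and holds its match 177 bases before the start. The sequences follow 5′ to 3′ on the strand of the gene, with the matches in capitals.
Cabp5: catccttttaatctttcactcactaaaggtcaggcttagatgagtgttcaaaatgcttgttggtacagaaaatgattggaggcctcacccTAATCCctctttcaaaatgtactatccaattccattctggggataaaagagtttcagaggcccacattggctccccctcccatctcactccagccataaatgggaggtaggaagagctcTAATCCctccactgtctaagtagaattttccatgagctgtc
Trpm1: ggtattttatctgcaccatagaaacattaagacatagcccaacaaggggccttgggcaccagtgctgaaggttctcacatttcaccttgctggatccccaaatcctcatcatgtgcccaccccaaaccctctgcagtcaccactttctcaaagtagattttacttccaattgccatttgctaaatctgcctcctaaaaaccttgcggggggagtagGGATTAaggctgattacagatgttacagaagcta
Isl1: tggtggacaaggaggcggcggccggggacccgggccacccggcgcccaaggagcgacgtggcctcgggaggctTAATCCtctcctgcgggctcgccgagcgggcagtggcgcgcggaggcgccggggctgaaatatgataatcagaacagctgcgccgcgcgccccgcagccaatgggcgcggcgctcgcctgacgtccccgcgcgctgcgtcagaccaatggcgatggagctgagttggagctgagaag

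Each library is a table of unique molecular identifiers (UMIs, counts of captured RNA molecules) per gene and cell. Libraries held between 12317170 and 50938304 UMIs. Replicate 2 of *Yap5SA* AAV was left out because 1361 of its barcodes, 99.8%, also occurred in replicate 1, whereas any other pair had at most 0.218% in common. In the remaining 4 libraries, called captures here, 10749 cells had at least 1000 UMIs and at most 15% mitochondrial UMIs. Clusters were made without the 10 genes and named by marker lists that hold none of them, as "X-like". MG-like cells numbered 5555, rod-like 1350, microglia and macrophage-like 1233, bipolar-like 436, amacrine-like 310, pericyte and smooth muscle-like 283 and cone-like 117, with smaller classes of pigment epithelium, T and natural killer cells and endothelium. A further 1282 cells fell in 4 clusters that met no rule for a name. All 12 bipolar markers of the naming list were detected in at least 10% of bipolar-like cells in each of the libraries that held more than 2 of them.

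Bipolar-like cells were unevenly spread over the captures, with 369 in *mKate2* AAV replicate 2, 64 in *Yap5SA* AAV replicate 3, 2 in *mKate2* AAV replicate 1 and 1 in *Yap5SA* AAV replicate 1. The 2 captures with bipolar-like cells are also those whose file headers name Cell Ranger 9.0.1, while the other headers name 8.0.0. Capture and processing version therefore cannot be told apart here. With 1 library per condition that held these cells, their values have no replicate check and no test, and intervals below are exact 95% intervals for counting error only. The gene lists of the 2 captures rich in bipolar-like cells have no entry for tdTomato, so the reporter was not measured in them. In the other 2 captures a tdTomato UMI was found in 48.5% and 66.4% of MG-like cells, in 5.88% and 4.97% of microglia and macrophage-like cells, and in 0 of 2 and 0 of 1 bipolar-like cells. All bipolar-like cells of these captures fell in a sub-cluster, described below, that got no bipolar type name. *Calb2*, *Nefl* and *Sncg* led it, and *Nefl* and *Sncg* are on the list of ganglion cell markers. The reporter was thus not read in any cell of a named bipolar type.

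All 10 genes had their highest level in bipolar-like cells among the named classes, in both libraries that held them. Levels are UMIs of the gene per 1000000 UMIs of the class (CPM), and they are compared for 1 gene across cells, not between genes. *Vsx1*, a homeodomain factor of some cone bipolar types, was the most restricted, with 99.3% of its 285 UMIs in bipolar-like cells. The share was 92.3% for *Grik1*, 89.9% for *Trpm1*, 84.5% for *Cabp5*, 84.3% for *Grm6*, 77.1% for *Isl1*, 67.1% for *Pcp2*, 66.7% for *Car8* and 62.7% for *Scgn*. *Prkca* was spread most widely, with 45.9% of its UMIs in bipolar-like cells, 21.6% in rod-like and 13.2% in MG-like cells. These shares also depend on how many cells of each class were captured, and they differed between the libraries. In *Yap5SA* AAV replicate 3 rod-like cells held 45.4% of the *Prkca* UMIs and bipolar-like cells 24.9%, while in *mKate2* AAV replicate 2 the order was reversed, at 19.0% and 53.9%. The bipolar-like share of *Car8* was 70.9% in *mKate2* AAV replicate 2 and 46.8% in *Yap5SA* AAV replicate 3, and that of *Grm6* 86.7% and 69.6%.

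One unnamed cluster also carried most of these genes. It held 72 cells, 54 of *mKate2* AAV replicate 2 and 18 of *Yap5SA* AAV replicate 3, and stayed unnamed because *Cngb3*, a cone marker, was among its 10 leading genes and none of the 12 bipolar markers was. Its levels of *Pcp2* were 1485 and 1728 CPM, of *Scgn* 695 and 663 CPM, of *Isl1* 591 and 584 CPM and of *Car8* 332 and 286 CPM, each above the bipolar-like class of the same library. *Grik1* was at 3.44 and 14.2 CPM there and *Vsx1* at 0. The cluster thus shared 8 of the 10 genes with the bipolar-like class and nearly lacked the others.

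**Figure D1:**
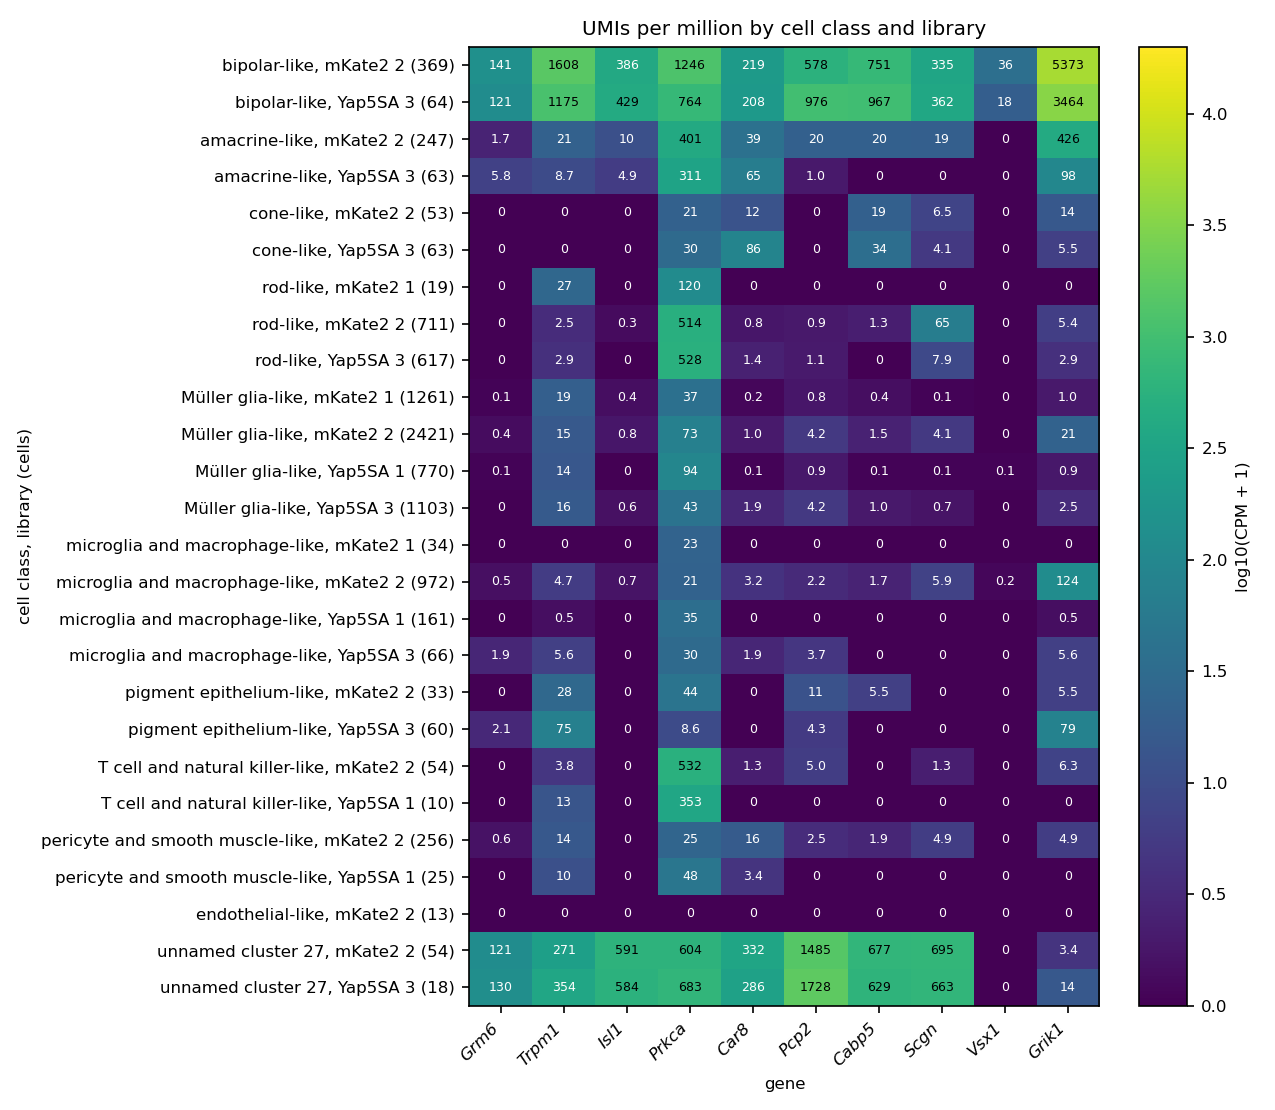
Levels in CPM of the 10 genes (columns) in each named cell class with at least 10 cells in a library, and in unnamed cluster 27 (rows, with library and number of cells). Colour is log10(CPM + 1) and printed values are CPM. The bipolar-like rows exceed the other named classes for every gene, and *Prkca* also shows high levels in rod-like, amacrine-like and T cell and natural killer-like rows.

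The receptor of the ON cascade had low levels in the named classes other than bipolar-like cells. *Grm6*, which encodes mGluR6, was at 141 CPM (133 to 150) in bipolar-like cells of *mKate2* AAV replicate 2 and at 121 CPM (101 to 144) in those of *Yap5SA* AAV replicate 3. In rod-like and cone-like cells of these libraries it had no UMI, and in MG-like cells it was at 0.0874, 0.415, 0.102 and 0 CPM in replicates 1 and 2 of *mKate2* AAV and then replicates 1 and 3 of *Yap5SA* AAV. Amacrine-like cells had 1.72 and 5.83 CPM in the 2 libraries, from 9 and 6 UMIs. The unnamed cluster of 72 cells, at 121 and 130 CPM, was close to the bipolar-like class and held 186 *Grm6* UMIs. In *mKate2* AAV replicate 2 the bipolar-like level was 340 times that of MG-like cells. In *Yap5SA* AAV replicate 3 it was at least 290-fold higher, taking 3 counts in the class as the limit that a count of 0 allows.

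*Trpm1*, the channel that mGluR6 gates, was at 1608 CPM (1579 to 1637) in bipolar-like cells of *mKate2* AAV replicate 2 and at 1175 CPM (1111 to 1243) in those of *Yap5SA* AAV replicate 3. Unlike *Grm6*, it had a low level in MG-like cells of all 4 captures, at 18.8, 15.1, 13.7 and 15.7 CPM in the order given above. In microglia and macrophage-like cells, which are not known to use the channel, it was at 0, 4.74, 0.457 and 5.59 CPM. The MG-like level was the higher one in every capture, with counting intervals that overlapped in *Yap5SA* AAV replicate 3, and over 10 MG-like clusters it ranged from 14.1 to 23.6 CPM with a median of 16.4. No single cell held more than 4.42% of the *Trpm1* UMIs of MG-like cells in a capture. Pigment epithelium-like cells, a pigmented type like the melanocytes from which the channel's other name, melastatin, comes, were at 27.6 CPM (8.96 to 64.4) and 75.1 CPM (52.3 to 104).

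Transcription factors differed in how tightly they were held. *Isl1*, a LIM-homeodomain factor of ON bipolar cells and of some amacrine and ganglion cells, was at 386 CPM (372 to 400) and 429 CPM (390 to 470) in bipolar-like cells of the 2 libraries. Amacrine-like cells had 10.3 and 4.86 CPM, and MG-like cells had 0.437, 0.829, 0 and 0.557 CPM over the 4 captures. *Vsx1* was at 35.6 CPM (31.4 to 40.1) and 18.0 CPM (10.8 to 28.1) in bipolar-like cells, and 2 UMIs were found in all other cells together, 1 of them in MG-like cells. *Vsx1* was thus low but almost without counts elsewhere.

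*Prkca*, which encodes protein kinase C alpha, was also well detected in several other named classes. It was at 1246 CPM (1220 to 1271) and 764 CPM (712 to 819) in bipolar-like cells. Rod-like cells of the same libraries had 514 CPM (496 to 532) and 528 CPM (501 to 555), and amacrine-like cells 401 CPM (384 to 418) and 311 CPM (278 to 347). T and natural killer-like cells of *mKate2* AAV replicate 2 had 532 CPM (483 to 585). The level was uneven between rod-like clusters in both libraries. The rod-like cluster led by *Marchf1* and *Pex5l* had 1279 CPM in *mKate2* AAV replicate 2 and 1310 CPM in *Yap5SA* AAV replicate 3, and the one led by *Rp1* 498 and 483 CPM. In the first of these clusters *Prkca* was near the bipolar-like class as a whole in *mKate2* AAV replicate 2 and above it in *Yap5SA* AAV replicate 3. Both clusters also differed in depth, with medians of 2538.5 and 10259 UMIs per cell, and the part of depth or RNA quality in their *Prkca* level was not tested. A UMI of *Prkca* alone therefore did not separate bipolar-like from rod-like cells in these libraries.

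*Car8*, a carbonic anhydrase-related protein without enzyme activity, was at 219 CPM (208 to 230) and 208 CPM (182 to 238) in bipolar-like cells. It was also found in cone-like cells, at 11.7 and 86.2 CPM, and in amacrine-like cells, at 38.8 and 65.1 CPM. *Pcp2*, a modulator of G protein signalling also known from Purkinje cells, was at 578 CPM (560 to 595) and 976 CPM (918 to 1038) in bipolar-like cells. Its next highest named class was amacrine-like in *mKate2* AAV replicate 2, at 20.0 CPM, while MG-like cells had 0.786, 4.20, 0.917 and 4.18 CPM over the 4 captures. Both genes were low in MG-like cells, and both were higher there in the 2 captures that held many bipolar-like cells.

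Of the calcium-binding proteins, *Cabp5*, a calmodulin-like protein of bipolar terminals, was at 751 CPM (732 to 771) and 967 CPM (909 to 1028) in bipolar-like cells. Cone-like cells had 19.5 and 34.2 CPM, and MG-like cells 0.437, 1.54, 0.102 and 0.975 CPM. The gene made up nearly all counts of the 10 genes in the bipolar-like cells outside the 2 large libraries. The 2 bipolar-like cells of *mKate2* AAV replicate 1 held 27 of the 32 *Cabp5* UMIs of that capture and no UMI of any other of the 10 genes. The 1 bipolar-like cell of *Yap5SA* AAV replicate 1 held 6 of its 7 *Cabp5* UMIs and 1 UMI of *Pcp2*. *Scgn*, which encodes secretagogin, an EF-hand protein of cone bipolar cells, was at 335 CPM (322 to 349) and 362 CPM (326 to 400). In rod-like cells it was at 65.4 CPM (59.3 to 72.0) in *mKate2* AAV replicate 2 and at 7.90 CPM (4.95 to 12.0) in *Yap5SA* AAV replicate 3. The rod-like level of *Scgn* thus differed between these libraries by more than counting error, while the bipolar-like level did not.

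*Grik1*, a kainate receptor subunit of OFF bipolar cells, was at 5373 CPM (5320 to 5426) and 3464 CPM (3352 to 3578) in bipolar-like cells. Amacrine-like cells had 426 CPM (408 to 444) and 98.2 CPM (80.0 to 119). In microglia and macrophage-like cells of *mKate2* AAV replicate 2 it was at 124 CPM, but 642 of the 733 UMIs, 87.6%, came from 1 cell of 51385 UMIs, and without that cell the level was 15.6 CPM. In MG-like cells of that library 226 of 359 *Grik1* UMIs, 63.0%, came from 1 cell of 36583 UMIs, and without it the level fell from 21.3 to 7.89 CPM. Levels of *Grik1* in these classes of the library thus rested mostly on single deep cells, and MG-like cells of the other captures had 0.961, 0.917 and 2.51 CPM. Pigment epithelium-like cells of *Yap5SA* AAV replicate 3 had 79.4 CPM (55.9 to 109) of *Grik1*, from 37 UMIs in 19 of 60 cells.

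Between the libraries, bipolar-like cells of *Yap5SA* AAV replicate 3 had 1.69 times the *Pcp2* and 1.29 times the *Cabp5* level of those of *mKate2* AAV replicate 2. The ratio was 0.731 for *Trpm1*, 0.645 for *Grik1*, 0.614 for *Prkca* and 0.506 for *Vsx1*. For *Grm6*, *Isl1*, *Car8* and *Scgn* the counting intervals of the libraries overlapped in the class as a whole. The mix of types differed as well, since rod bipolar-like cells, defined below, were 44 of 369 in the first library and 4 of 64 in the second. Within ON bipolar-like cells *Pcp2* was at 308 and 764 CPM and *Trpm1* at 1749 and 1236 CPM, in the same directions as in the whole class. Within OFF cone bipolar-like cells *Pcp2* was at 117 and 311 CPM, but *Trpm1* went the other way, at 335 and 433 CPM. The overlap for *Isl1* did not hold within ON cells, at 573 CPM (546 to 602) and 712 CPM (640 to 790). That for *Car8* did not hold within OFF cells, at 12.5 and 34.5 CPM, or rod bipolar-like cells, at 1218 and 1861 CPM. For *Grm6* and *Scgn* the intervals overlapped within each named group. *Grik1* was at 383 and 38.3 CPM in ON cells and at 12585 and 8363 CPM in OFF cells, so the ratio of the whole class did not hold within each group. The ON values rested on few cells, and a single cell held 255 of the 1112 *Grik1* UMIs of the ON group. All these levels describe 2 libraries and are not a comparison of the viruses.

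The share of cells with a UMI grows with depth, so each cell was thinned at random to 1000 UMIs before cells were counted. In bipolar-like cells the share was 50.2% for *Trpm1* (45.4 to 55.0), 43.6% for *Grik1* (38.9 to 48.4) and 42.4% for *Cabp5* (37.7 to 47.2). Lower shares were found for *Scgn* (22.9%), *Pcp2* (22.7%), *Isl1* (22.5%), *Prkca* (15.6%), *Grm6* (14.4%), *Car8* (11.2%) and *Vsx1* (1.38%). Microglia and macrophage-like cells served as the comparison class, and whether their counts of these genes are background was not tested. Their *Prkca* level is given below for each capture and was not confined to the captures rich in bipolar-like cells. In microglia and macrophage-like cells the share ranged from 0 of 1233 cells for *Grm6* and *Vsx1*, which allows up to 0.243%, to 1.38% for *Prkca* and for *Grik1*. All 10 shares in bipolar-like cells lay above those of microglia and macrophage-like cells. For *Vsx1* the lower bound, 0.507%, also lay above the 0.243% that the absence of counts allows. In MG-like cells the share was 3.92% for *Prkca* (3.43 to 4.47) and 1.58% for *Trpm1* (1.27 to 1.95), against 1.38% (0.805 to 2.20) and 0.487% (0.179 to 1.06) in microglia and macrophage-like cells. For the other 8 genes the MG-like share was at most 0.774% and its interval overlapped that of microglia and macrophage-like cells. These shares pool the captures, whose mix differed between the classes. *mKate2* AAV replicate 2 gave 972 of 1233 microglia and macrophage-like cells and 2421 of 5555 MG-like cells. Differences between classes and between captures are therefore mixed in these shares. Median depths before thinning were 20230 UMIs in bipolar-like, 4276 in MG-like and 4528 in microglia and macrophage-like cells.

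Among the named classes, cells with at least 3 of the genes were rare outside the bipolar-like class. At 1000 UMIs per cell, 186 of 436 bipolar-like cells had UMIs of at least 3 of the 10 genes, 42.7% (38.0 to 47.5). The libraries were close to each other, at 43.1% (38.0 to 48.3) in *mKate2* AAV replicate 2 and 42.2% (29.9 to 55.2) in *Yap5SA* AAV replicate 3. In the unnamed cluster of 72 cells the share was 62.5% (50.3 to 73.6). It was 0.645% in amacrine-like cells, and no cell of 1350 rod-like, 5555 MG-like or 1233 microglia and macrophage-like cells reached 3 genes, which allows up to 0.222%, 0.0540% and 0.243% of each. Rod-like cells often had 1 gene, 36.8% and 36.1% in the 2 large libraries, without reaching 3.

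**Figure D2:**
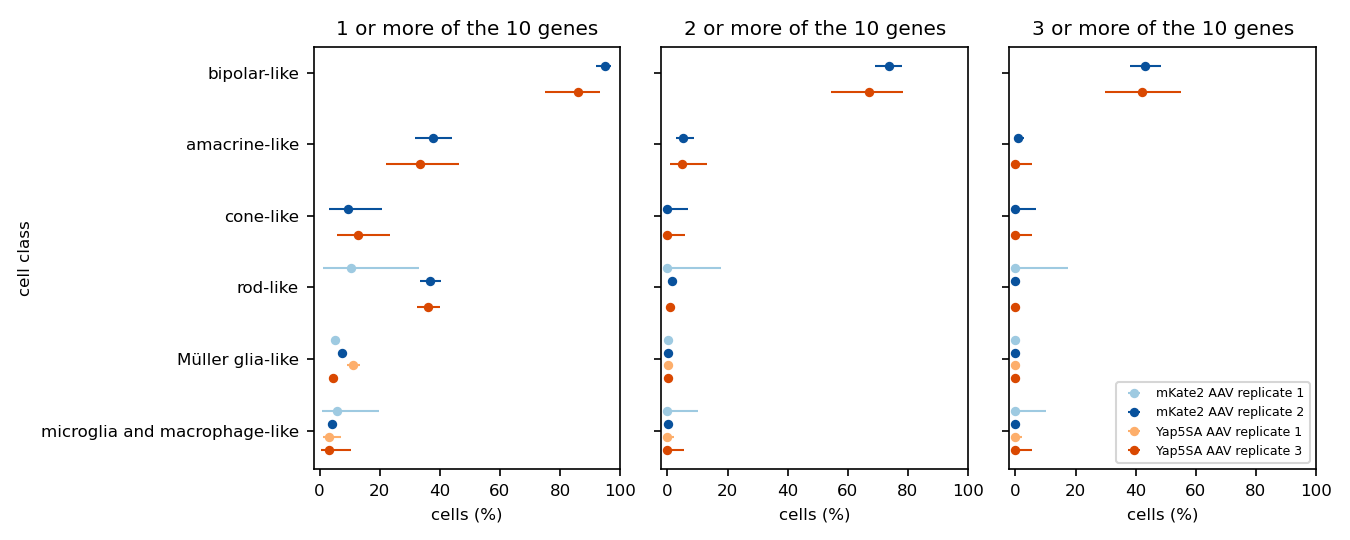
Percent of cells (x axis) with a UMI of at least 1, 2 or 3 of the 10 genes after thinning to 1000 UMIs per cell, for 6 cell classes (y axis) and by library (colour, where the library held at least 10 cells of the class), with exact 95% intervals as bars. Bipolar-like cells reach 43.1% and 42.2% for 3 or more genes, and MG-like cells are at 0% in all 4 captures.

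Of the MG-like cells, 12 of 5555 had at least 2 of the genes at this depth, 0.216%. By capture, the share with at least 1 gene was 5.08% and 7.52% with *mKate2* AAV (replicates 1 and 2) and 11.2% and 4.35% with *Yap5SA* AAV (replicates 1 and 3), so the captures of the conditions overlapped. At this depth 218 of the 5555 cells had a *Prkca* UMI, 88 a *Trpm1* UMI and 43 a *Grik1* UMI. The share with at least 1 gene thus rested mostly on *Prkca*, which was also well detected in rod-like and amacrine-like cells. Before thinning, 36 MG-like cells had UMIs of at least 3 genes, 1 in *mKate2* AAV replicate 1, 29 in *mKate2* AAV replicate 2, none in *Yap5SA* AAV replicate 1 and 6 in *Yap5SA* AAV replicate 3. The *Yap5SA* AAV cell with the most, 6 of the 10 genes, had 114614 UMIs, of which 41 were of the 10 genes, beside 109 UMIs of *Rlbp1* and 285 of *Glul*, which are MG genes. The median depth of MG-like cells in that capture was 3138 UMIs. Not all such cells were as deep. In *mKate2* AAV replicate 2, cells of 5900 and 9897 UMIs each had 5 of the genes. They held 30 and 10 UMIs of them, beside 5 and 20 UMIs of *Rlbp1*. No doublet caller was run, and the part of doublets or free RNA in such cells was not tested.

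Pairs of genes divided the bipolar-like cells. Of 172 bipolar-like cells with a *Grm6* UMI before thinning, 97.7% also had *Trpm1* and 94.2% had *Isl1*, while *Isl1* was found in 19.3% of the rest. *Grik1* was found in 33.7% of *Grm6*+ cells and in 75.8% of the others. Its amount differed further, with a median of 3.5 UMIs in the 58 cells that had both genes and 192.5 UMIs in the 200 cells that had *Grik1* without *Grm6*. At 1000 UMIs per cell *Grm6* and *Grik1* met in 4 cells.

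*Prkca* and *Scgn* were mostly found in different cells. *Scgn* was found in 36.1% of 122 *Prkca*+ cells and in 74.8% of *Prkca*- cells, and at 1000 UMIs per cell none of the 68 *Prkca*+ cells was among the 100 *Scgn*+ cells. *Car8* went the other way, in 63.1% of *Prkca*+ and 14.0% of *Prkca*- cells. *Vsx1* was found with *Scgn* in 98.1% of the 54 cells that had it. Cells of a pair share their library and depth, and these shares carry no test.

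**Figure D3:**
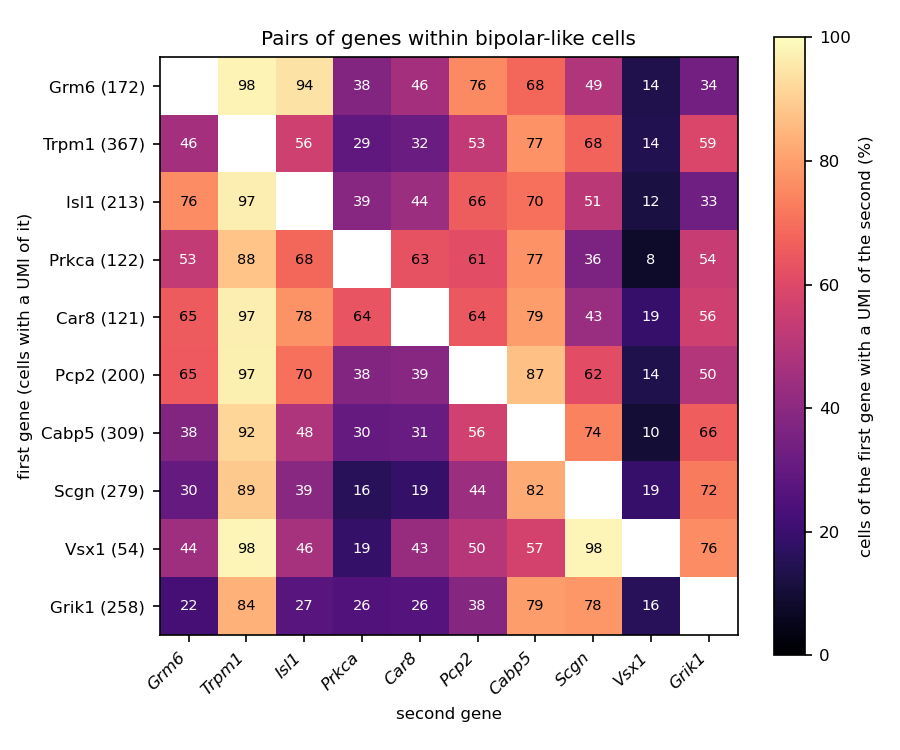
For each pair of the 10 genes, the percent of bipolar-like cells with a UMI of the first gene (rows, with the number of such cells) that also had a UMI of the second (columns), without thinning. *Trpm1* is found with most genes, while *Grm6* and *Isl1* share cells with each other more than with *Grik1*.

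The bipolar-like cells were clustered again without the 10 genes, and 10 of 12 sub-clusters could be named by markers other than these genes. They made up 48 rod bipolar-like, 153 other ON bipolar-like and 179 OFF cone bipolar-like cells, and 56 cells stayed unnamed. Of the unnamed cells, 43 formed sub-cluster 3, with a median of 4954 UMIs and led by *Calb2*, *Nefl* and *Sncg*. *Nefl* and *Sncg* are on the list of ganglion cell markers, so these cells may be of another type. They are included in all values of the bipolar-like class. No minimum mean marker level was set for sub-clusters. OFF sub-clusters 0 and 7, of 65 and 31 cells, had mean marker levels of 0.194 and 0.221, below the 0.25 asked of the classes, and the cone marker *Cngb3* at 1370 and 1677 CPM among their leading genes. Of the genes, 6 were higher in rod bipolar-like cells than in the ON or the OFF group. The rod bipolar-like cells had 7516 CPM of *Prkca*, 4885 of *Trpm1*, 2999 of *Pcp2*, 1267 of *Car8*, 1072 of *Isl1* and 318 of *Grm6*. *Prkca* was above 100 CPM in no other named sub-cluster, and its next highest value was 54.0 CPM. Within this group *Scgn* had 2 UMIs in 48 cells, while *Cabp5* was found in 45 of them. The rod bipolar-like group was 44 cells of *mKate2* AAV replicate 2 and 4 of *Yap5SA* AAV replicate 3, with 7609 and 6400 CPM of *Prkca*.

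*Isl1*, *Grm6* and *Grik1* differed widely between the ON and OFF groups. *Isl1* had 0 UMIs in 179 OFF cone bipolar-like cells, which allows a share with a UMI of up to 1.68% and does not limit the share that expresses the gene below detection, and 146 of 153 ON bipolar-like cells had it. *Grm6* had 1 UMI in the OFF group and was found in 73.2% of ON bipolar-like cells. *Grik1* was at 12059 CPM in the OFF group, 332 CPM in the ON group and 163 CPM in rod bipolar-like cells. The ON value rested on few cells, since 41 of 153 had a *Grik1* UMI and 1 cell held 255 of the 1112 UMIs. *Trpm1* was graded rather than divided, with 4885 CPM in rod bipolar-like, 1673 in ON and 347 in OFF cells, and 145 of 179 OFF cells had at least 1 UMI.

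Single sub-clusters departed from their group. ON sub-cluster 6, of 33 cells and led by *Nrg3*, had no *Grm6* UMI although *Isl1* was at 452 CPM and *Trpm1* at 904 CPM. Its mean marker level, 0.255, was the lowest of the ON sub-clusters, and the cone marker *Cngb3* was at 520 CPM, so its ON name is weakly based. ON sub-cluster 9, led by *Pcdh11x*, had *Grm6* at 249 CPM but no *Scgn* and 4.14 CPM of *Cabp5*. ON sub-cluster 5, led by *Cck*, had the highest *Grm6* level of any sub-cluster, 412 CPM. *Vsx1* was concentrated in the same sub-cluster, at 197 CPM, and in OFF sub-cluster 8, led by *Galntl6*, at 136 CPM. In OFF sub-cluster 8 *Grik1* was at 1543 CPM, against 13047 to 18256 CPM in the other OFF sub-clusters. An unnamed sub-cluster of 13 cells with a median of 4460 UMIs had 12322 CPM of *Prkca* and 5922 CPM of *Trpm1*. OFF sub-cluster 10, of 16 cells and led by *Tafa4*, had no *Trpm1* UMI and 16.0 CPM of *Cabp5*, with 844 CPM of *Scgn*. The calcium-binding genes thus varied within the ON and within the OFF group.

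**Figure D4:**
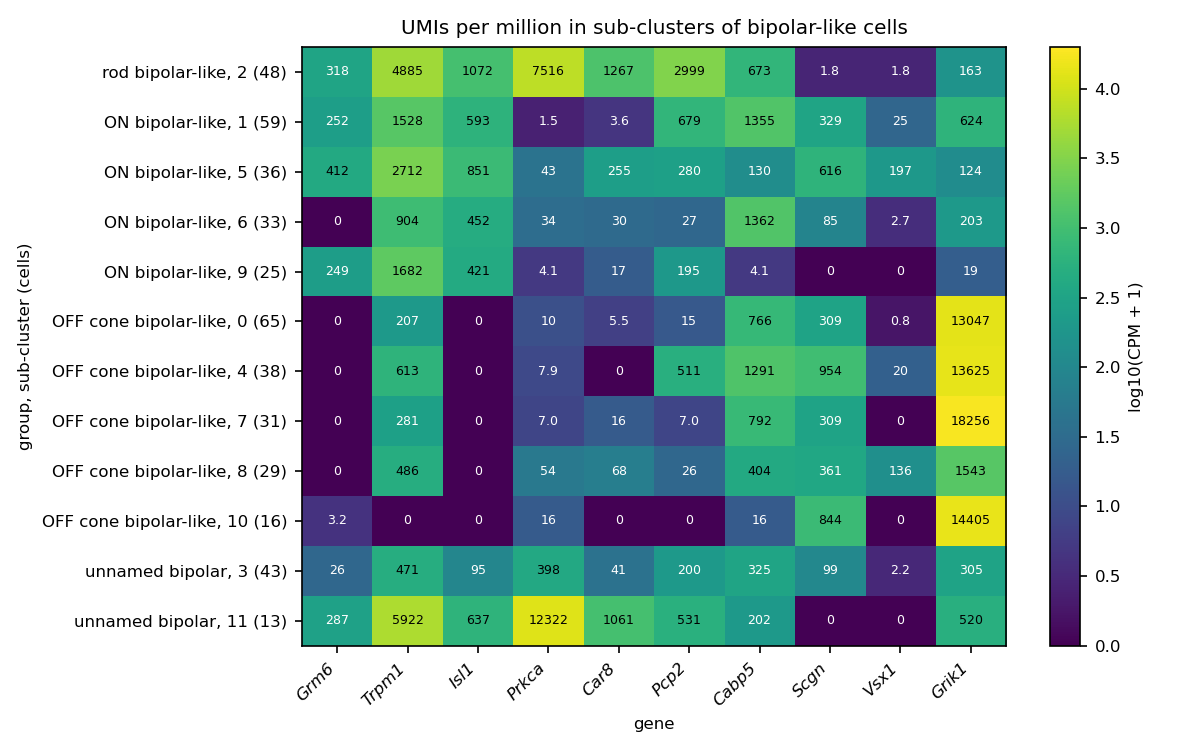
Levels in CPM of the 10 genes (columns) in sub-clusters of bipolar-like cells (rows, with group, sub-cluster number and cells), all captures summed. Colour is log10(CPM + 1). *Isl1* is at 0 in the 5 OFF rows and *Prkca* is above 100 CPM in rod bipolar-like sub-cluster 2 and in the unnamed rows.

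In MG-like cells, none of the genes passed the test between *Yap5SA* AAV and *mKate2* AAV. UMIs were summed per capture and tested over all genes with the quasi-likelihood test of edgeR (p-values adjusted by Benjamini-Hochberg), 2 captures against 2, and 0% of 15189 genes were called at an adjusted p of 0.05 (40 had an unadjusted p under 0.05). DESeq2 called 0, with 77 at an unadjusted p under 0.05. Both counts are far below a share of 0.05 of the genes tested, so these tests were conservative here. Captures of 1 condition differed widely, with median depths of 7741 and 3176 UMIs for *mKate2* AAV and 11502.5 and 3138 for *Yap5SA* AAV. A count of 0 genes called therefore does not show that the conditions were alike. Of the 10 genes 6 had enough counts to be tested, and 0 of 6 were called. The other 4, *Grm6*, *Isl1*, *Scgn* and *Vsx1*, were below the filter on low counts.

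For *Prkca* MG-like cells had 37.5 and 72.8 CPM with *mKate2* AAV and 93.9 and 42.6 CPM with *Yap5SA* AAV, so the conditions overlapped. Over the 10 MG-like clusters *Prkca* ranged from 16.8 to 126 CPM, with a median of 47.2, and captures differed in their mix of clusters. The cluster with the lowest level held 888 cells of *mKate2* AAV replicate 2 and 43 of *Yap5SA* AAV replicate 1. The part of this mix in the *Prkca* levels of the captures was not tested. The log2 fold change was 0.18 (SE 0.54, edgeR adjusted p = 1). Without *mKate2* AAV replicate 1 it was -0.29 and without *Yap5SA* AAV replicate 1 it was -0.48, so its direction rested on single captures. For *Trpm1*, whose 4 values are given above, the log2 fold change was -0.28 (SE 0.30, edgeR adjusted p = 1). *Trpm1* had the smallest error of the 6 genes. The log2 fold changes of *Pcp2* (-0.15, SE 1.13), *Car8* (0.57, SE 1.5), *Cabp5* (-1.08, SE 1.30) and *Grik1* (-2.89, SE 1.48) rested on few counts or, for *Grik1*, on the cell described above. Changes of several fold in these 4 genes were not detectable at this spread.

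**Figure D5:**
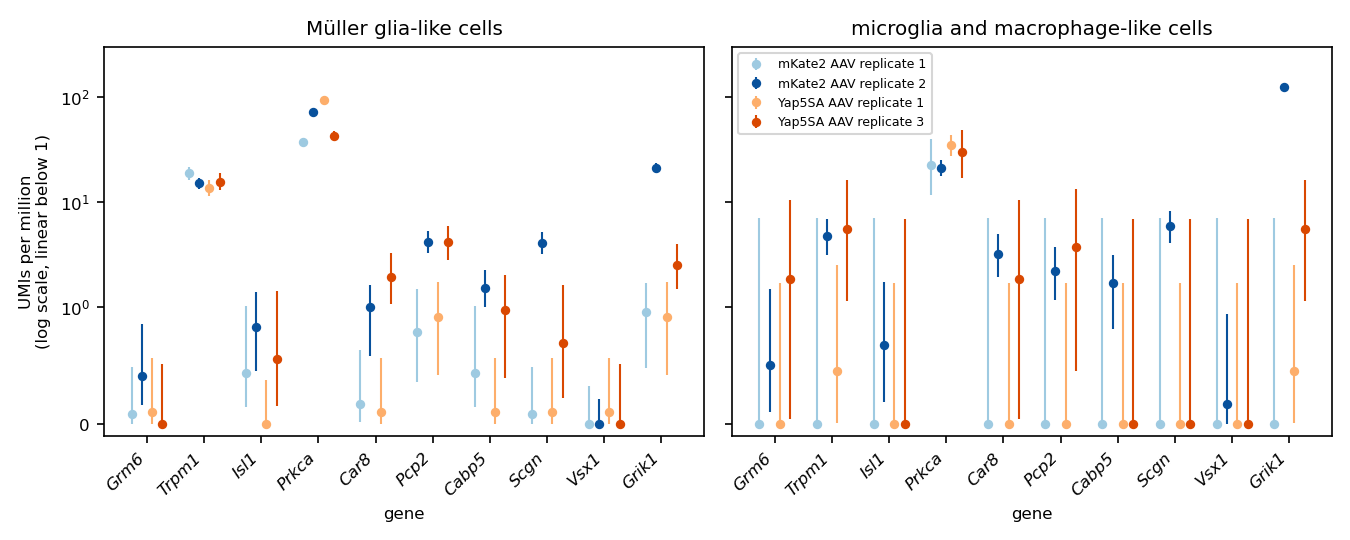
Levels in CPM of the 10 genes in MG-like cells (left) and microglia and macrophage-like cells (right), 1 point per capture with exact 95% counting intervals as bars, on an axis that is logarithmic above 1 and linear below. *Trpm1* lies between 13.7 and 18.8 CPM in MG-like cells of the 4 captures, and the high *Grik1* value on the right rests on 1 cell.

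In microglia and macrophage-like cells 0% of 9544 genes were called (194 at an unadjusted p under 0.05, with 8 called by DESeq2 and 9 by edgeR with the Cell Ranger version as a term), and only *Prkca* of the 10 passed the filter on low counts. It was at 22.8 and 21.3 CPM with *mKate2* AAV and at 34.7 and 29.8 CPM with *Yap5SA* AAV, at a log2 fold change of 0.51 (SE 0.48, edgeR adjusted p = 1). The values of the conditions did not overlap, but some rested on few cells. *mKate2* AAV replicate 1 held 34 cells of the class. *Yap5SA* AAV replicate 3 held 66, with 16 *Prkca* UMIs, and the counting intervals of these captures overlapped. Rod-like cells were not tested because *Yap5SA* AAV replicate 1 held 3 of them.

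Other genes of the same systems were read in the MG-like fit. Of the mGluR6 cascade, the proteins that couple the receptor to its channel, 9 of 10 listed genes were tested and 0 were called in either direction, with a median log2 fold change of 0.01 against -0.02 over all genes. Of 14 transcription factors of bipolar fate 9 were tested, 0 were called and the median was 0.22. Of 9 calcium-binding proteins 5 were tested with 0 called and a median of 0.29, and of 10 glutamate receptor genes of OFF bipolar input 9 were tested with 0 called and a median of 0.06. *Gnao1*, the G protein alpha subunit of the cascade, was at 123, 97.6, 118 and 185 CPM in MG-like cells over the 4 captures. The highest value was that of *Yap5SA* AAV replicate 3, with a log2 fold change of 0.38 (SE 0.32, edgeR adjusted p = 1).

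Genes most alike in pattern were found from the correlation of log2(CPM + 10) over 21 class-by-capture profiles of at least 20 cells. These profiles share libraries and classes, so r is a description. Bipolar-like cells gave a profile only in *mKate2* AAV replicate 2 and in *Yap5SA* AAV replicate 3. For genes nearly confined to these cells, a high r therefore rests mostly on the contrast of those profiles with the rest. *Grm6* was most like *Gabrr1*, a GABA receptor subunit of bipolar cells (Pearson r = 0.992), and *Isl1* most like *Gm53533* (r = 0.996). *Cabp5* was most like *Bsph1* (r = 0.986) and *Lhx4* (r = 0.978), *Pcp2* like *Bhlhe23* (r = 0.987), *Car8* like *Cacna1h* (r = 0.979) and *Vsx1* like *Gm30725* (r = 0.996). *Trpm1* was most like *A730046J19Rik* (r = 0.935) and *Nyx* (r = 0.931), *Scgn* like *Siah3* (r = 0.955) and next *Gabrr2*, and *Grik1* like *Chrna4* (r = 0.946). The best match of *Prkca*, with r = 0.887, was the lowest of the 10 genes. *Gabrr1*, *Gabrr2*, *Lhx4* and *Nyx* are on the list that named the bipolar-like class, so their likeness follows in part from that naming.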

How the data were processed

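For each library the authors deposited raw counts of UMIs per gene and cell, made with Cell Ranger on GRCm39 per the labels (8.0.0) and limited to barcodes called as cells. Libraries held 1364 to 7729 cells. *Yap5SA* AAV replicate 2 was not used. Cells had at least 1000 UMIs and at most 15% mitochondrial UMIs, and no doublets were called or removed. Captures were integrated with Seurat 5.3.0 (reciprocal PCA, 3000 variable genes, 30 dimensions) in place of the study's scVI and clustered by Leiden (scanpy 1.11.5, leidenalg 0.10.2, k = 15, resolution 1), without the 10 genes. Numbers of cells per class moved a little with the linear algebra library's settings, which were therefore fixed. Clusters were named by marker lists if the mean marker level was at least 0.25 of its highest, 3 markers were detected in 10% of cells, no other list had more genes among the 10 leading ones and the cells were not shallow for their library. Sub-clusters followed the same rule with lists of bipolar types only and no minimum mean level. This rule, and that for sub-clusters, was adjusted after a first version had been seen. Summed counts were tested with edgeR 4.0.16 (R 4.3.3; filterByExpr, TMM, quasi-likelihood, Benjamini-Hochberg at 0.05) and with DESeq2 1.42.0, in classes with at least 10 cells in each capture, and the test was checked on simulated data. Intervals are exact Poisson or binomial 95% intervals for counting error, and a count of 0 is given the limit of 3 counts. Genes named besides the 10 are the 3 most alike in pattern to each, among genes with at least 200 UMIs, and of the lists the 2 of highest level in MG-like cells or any called, of which the text gives some, and some results are not reported here. The members and lists were chosen with earlier results of these data known. Alternatives covered the test, filters, depth, integration, genes clustered, resolution and leaving out each capture.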

Additional observations from a re-analysis of the deposited data

How the results depend on the processing

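No paired analysis was possible because the captures compared share 1 replicate number, which marks no shared animal or day. The Cell Ranger version joins 1 capture of each condition, and its fit is given as a term below. In MG-like cells 0 genes were called under the alternatives except with no filter on low counts. With no filter 2 were, *Flnc* (log2 fold change -2.77) and *Gm1698* (8.29), both at an edgeR adjusted p of 0.0490. With no filter and without the cell with the most *Grik1* UMIs the same 2 were called in MG-like cells, both at an edgeR adjusted p of 0.0493. Leaving out each capture in turn changed the direction of 4 log2 fold changes there, from -0.48 to 0.88 for *Prkca*, -3.84 to 0.83 for *Grik1*, -1.63 to 1.69 for *Pcp2* and -2.63 to 2.46 for *Car8*, and no other alternative changed a direction. In microglia and macrophage-like cells the 0 genes called became 73 with no filter on low counts, 8 with DESeq2, 9 with the Cell Ranger version as a term and 1 to 62 when single captures were left out, the 1 being *Csmd1* without *mKate2* AAV replicate 2. With no filter, *Grik1* was among the genes called there (edgeR adjusted p = 1.57e-08), but 63 genes were called and *Grik1* was not (log2 fold change -2.38, edgeR adjusted p = 0.998) without the cell with its most UMIs, an alternative chosen after seeing the data. *Grik1* was also called without *mKate2* AAV replicate 1 (edgeR adjusted p = 0.00023) and without *Yap5SA* AAV replicate 3 (4.2e-05). Of the tested lists 0 to 1 genes were called in this class when single captures were left out, the 1 being *Gria4* without *Yap5SA* AAV replicate 3 (log2 fold change -5.16, edgeR adjusted p = 0.00673).

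All 10 genes stayed highest in bipolar-like cells under the alternatives except with the 10 genes among those clustered (8 genes, with *Cabp5* and *Isl1* higher in a class named by ganglion cell markers) and with clusters at resolution 2 (9 genes, with *Grm6* higher in such a class). The share of bipolar-like cells with at least 3 genes was 50.7% at resolution 2, 61.3% at 2000 UMIs per cell and 86.2% without thinning. The share of MG-like cells with at least 2 genes was 0.636% and 4.99% at the last 2 settings. Captures held few or no bipolar-like cells in 2 of 4 cases, so depth and capture limit what can be said of these genes by condition, and *Vsx1* is near the limit of detection.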
